A study of Mus musculus with 4 samples.

Results

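Forkhead transcription factors share a DNA-binding domain called the winged helix, and subfamilies are named by letter according to how alike that domain is. Described here are the 9 genes Foxc1, Foxc2, Foxd1, Foxd2, Foxf1, Foxf2, Foxp1, Foxp2 and Foxp4, which were chosen by symbol as the Foxc, Foxd, Foxf and Foxp genes known from embryonic mesenchyme. Earlier results of these data were known when they were chosen. All 9 were found among the 25239 gene symbols of the count table, which also lists 35 other forkhead genes. The data are RNA sequencing libraries from hindlimb buds of FVB mouse embryos at embryonic day 11.5, labelled wild-type for genotype. Every embryo carried the reporter H11 hsp68-hZRS(404G>A)-mCherry, a red fluorescence transgene at the H11 locus under an hsp68 promoter and the human ZRS, a limb enhancer of Shh, with the base change 404G>A. Anterior tissue was dissected and sorted for mCherry-positive cells (2 libraries), and central tissue was dissected and sorted for mCherry-negative cells (2 libraries), so both groups carried the transgene and differed in limb domain and in reporter state together. Domain and reporter state therefore cannot be told apart as sources of a difference. The labels do not say how many embryos were pooled or whether the libraries of a group came from separate litters, so p-values measure only the spread between these libraries.

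As background, Foxc1 and Foxc2 act in mesenchyme that forms skeleton and around developing vessels, Foxd1 is known from stromal progenitors, and Foxf1 and Foxf2 are hedgehog-responsive genes of gut, lung and facial mesenchyme. Foxp1, Foxp2 and Foxp4 form dimers with each other through a leucine zipper, act largely as repressors, and are known from developing cartilage, muscle, lung and brain. The comparison asks how these regulators differ between anterior cells that express the variant reporter and central cells that do not.

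Expression of 8 of the 9 genes was lower in anterior than in central cells, and the remaining gene, Foxf1, was not called. All 9 fitted log2 fold changes were negative. Among the called members with reads in every library the falls ranged from 2.74-fold in Foxc2 to 11.3-fold in Foxc1, and Foxd1 and Foxd2 were at or near 0 in anterior cells. A gene was called when edgeR's quasi-likelihood test, adjusted by Benjamini-Hochberg over all 14610 tested genes, gave a p-value below 0.05. Over those genes 22.9% were called, 12.3% as lower in anterior cells and 10.7% as higher, and 6.78% were called lower by at least 1 on the log2 scale, which all 8 called members were. For 9 of 9 members both anterior values lay below both central values, an arrangement found in 32.6% of tested genes (63.5% when separation in either direction is counted). The median log2 fold change (anterior minus central) was -2.02 over the members and -0.01 over all tested genes. Foxd1, Foxd2 and Foxf1 passed the low-count filter (0.32 CPM, meaning counts scaled to 1 M, in 2 libraries) only with the help of central libraries and so, at their anterior counts, were tested only because they were higher there. Where these 3 genes enter the calls, the signs, the separation, the log2 criterion and the median above, they are therefore no evidence of direction. The shares over all tested genes given with those values were not restricted for this. Of the 6 members past that level in both libraries of each group, 6 were called lower, against 10.8% of the 13225 genes that met the same condition. RNA was measured in bulk, so fewer cells of an expressing type and less RNA per cell cannot be told apart.

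**Figure D1:**
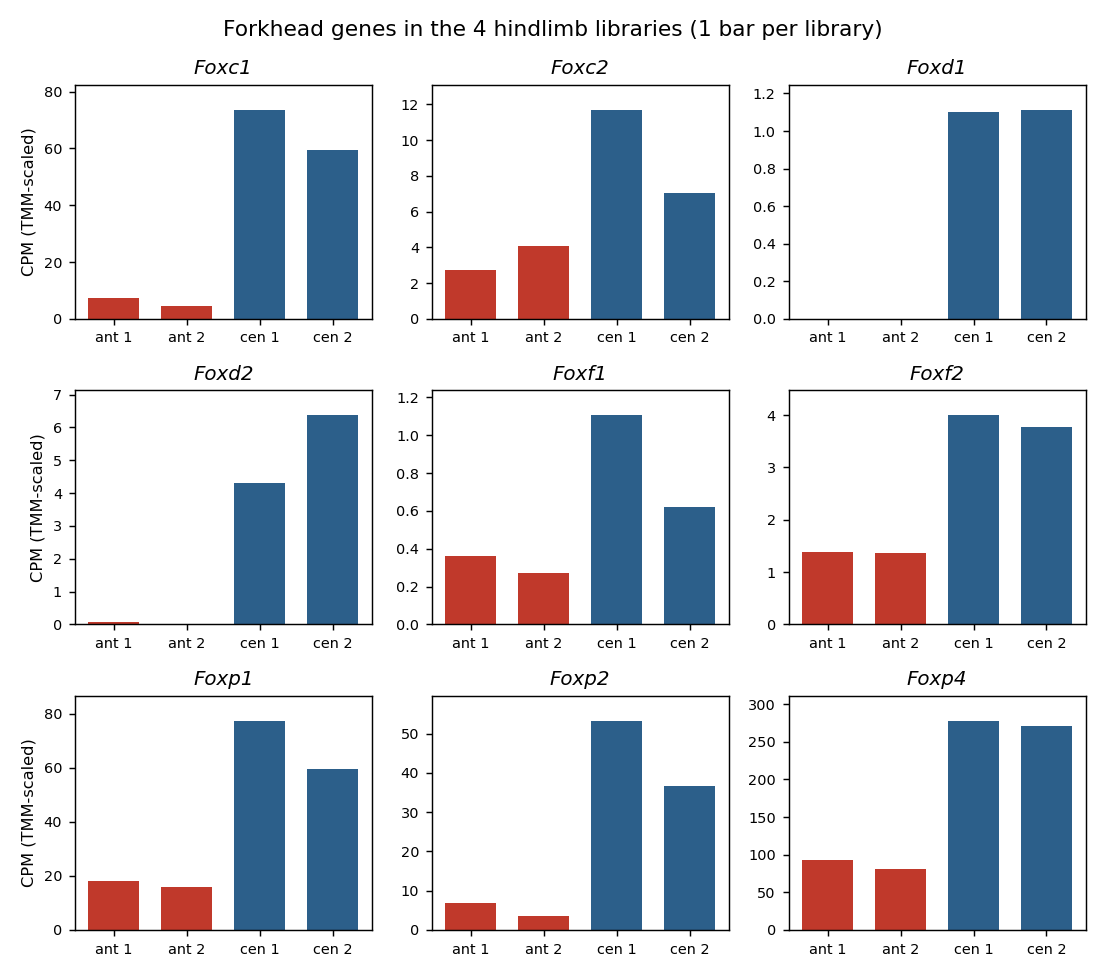
CPM (TMM-scaled, linear axes from 0) of the 9 forkhead genes, with 1 bar for each library: 2 anterior mCherry-positive libraries (red) and 2 central mCherry-negative libraries (blue). In each panel both anterior bars are lower than both central bars, and Foxd1 has no anterior counts.

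Library totals lay between 30080925 and 33257383 counts, so 3 counts, used as the detection floor, correspond to 0.0900 to 0.102 CPM. CPM values are TMM-scaled and given for each library or as a group mean ± SD. The labelled tissue was checked on 10 genes of limb mesenchyme, all of which were detected in every library. Their summed level was 3448 and 3410 CPM in anterior cells against 2776 and 2589 in central cells, with 4 called higher, 2 lower and 4 not called. Msx1 and Lhx9 also belong to the list of distal limb genes given below. Their group means were 246 and 561 CPM in anterior cells against 25.7 and 92.2 in central cells, so the sum does not measure mesenchyme alone. Prrx1, the most abundant of the 10 genes and a pan-mesenchymal factor, measured 717 and 676 CPM in anterior cells and 681 and 641 in central cells (edgeR adjusted p-value 0.473).

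The sequences just before the transcription starts are given first for Foxc1, the member with the largest fall among genes detected throughout, for Foxd1 and Foxd2, which were almost undetected in anterior cells, and for Fendrr, the noncoding gene that starts beside Foxf1 and was undetected there too. Each is the 250 bases before the RefSeq start on GRCm38.p6 (mm10), written 5′ to 3′ on the gene's own strand. Capitals mark matches on either strand to any of the motifs GACCACCCA for Gli factors, GTAAACA for forkhead factors, TGACAG for Meis factors, GGGCGG or GC box, TATAAA or TATA box, and CCAAT; a capital run can hold overlapping matches.
Foxc1, chr13:31806396-31806645, plus strand: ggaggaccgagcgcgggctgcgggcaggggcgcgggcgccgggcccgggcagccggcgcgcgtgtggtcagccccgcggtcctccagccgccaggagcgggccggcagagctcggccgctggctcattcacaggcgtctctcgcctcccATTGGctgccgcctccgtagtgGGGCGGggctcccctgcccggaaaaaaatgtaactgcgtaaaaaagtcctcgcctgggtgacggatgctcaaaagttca
Foxd1, chr13:98353995-98354244, plus strand: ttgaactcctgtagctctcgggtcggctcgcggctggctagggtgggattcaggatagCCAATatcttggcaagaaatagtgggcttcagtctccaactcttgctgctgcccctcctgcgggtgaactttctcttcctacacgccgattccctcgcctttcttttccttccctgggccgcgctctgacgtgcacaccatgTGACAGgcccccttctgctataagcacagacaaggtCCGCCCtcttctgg
Foxd2, chr4:114908899-114909148, minus strand: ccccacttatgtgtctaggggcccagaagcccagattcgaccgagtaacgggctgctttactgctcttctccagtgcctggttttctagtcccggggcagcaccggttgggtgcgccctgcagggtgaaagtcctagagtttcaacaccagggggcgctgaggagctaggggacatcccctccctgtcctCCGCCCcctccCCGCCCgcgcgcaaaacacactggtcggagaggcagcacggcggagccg
Fendrr, chr8:121083111-121083360, minus strand: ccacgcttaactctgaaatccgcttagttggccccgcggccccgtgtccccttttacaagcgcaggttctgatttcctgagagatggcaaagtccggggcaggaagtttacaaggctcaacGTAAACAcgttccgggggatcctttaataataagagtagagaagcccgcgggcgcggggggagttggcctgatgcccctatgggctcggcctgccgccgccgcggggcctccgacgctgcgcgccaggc
Foxc1 had a GC box at position -79 and a CCAAT box at -101, where -1 is the base before the start and the leftmost base of the match is given. Foxd1 held a Meis motif at -50, a GC box at -14 and a CCAAT box at -192, and Foxd2 held GC boxes at -60 and -49. The Fendrr window held a forkhead motif at -129, which 3.17% of 32851 promoter windows of this length contain. RefSeq entries were matched for 6 members, with 8 start sites in all because Foxp1 has 3. Of these 8 windows, 7 held a GC box (32.7% of all windows), 3 a CCAAT box (33.8%), 2 a Meis motif (15.9%), and 0 a TATA box (12.4%), a forkhead motif (3.17%) or a Gli motif (0.225%). Foxc2, Foxf1 and Foxp2 had no entry. GC content of the windows was 70.8% for Foxc1, 57.2% for Foxd1, 64.4% for Foxd2 and 62% for Fendrr, above the 52.4% that is the median of all windows. A match describes letters in the window and is not evidence of binding.

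Foxc1 (chromosome 13, 31806633 to 31812476, plus strand, a single exon in GENCODE M21) gave the largest fall among members detected in every library. Its level was 7.32 and 4.36 CPM in anterior libraries, against 73.5 and 59.3 CPM in central libraries. The lowest central value was thus far above the highest anterior value. The log2 fold change was -3.50 ± 0.21 (SE), an 11.3-fold lower level, and the adjusted p-value from edgeR was 1.09e-05.

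Its paralog Foxc2 (chromosome 8, 121116171 to 121118895, plus strand, a single exon) was also lower in anterior cells. The anterior libraries held 2.76 and 4.09 CPM and the central ones 11.7 and 7.04, groups that were separate but closer together than those of Foxc1. The log2 fold change was -1.45 ± 0.31 (SE; edgeR-adjusted p-value 0.0105), a 2.74-fold lower level. Per kilobase of exon, Foxc1 stood at 2.93 and 3.93 times the level of Foxc2 in the central libraries and at 1.24 and 0.497 times in the anterior ones. In central cells Foxc1 was therefore the more abundant of the pair in both libraries, and in anterior cells the order differed between the libraries. Whether the falls of the 2 paralogs differ in size was not tested.

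The Foxd genes were nearly absent from anterior cells. Foxd1 (chromosome 13, 98354242 to 98359305, plus strand, a single exon) had 0 counts in each anterior library, against 34 and 36 counts in central libraries. Against the floor of 3 counts per library it was at least 11.5-fold lower in anterior cells, and the adjusted p-value from edgeR was 0.00267. Its central level was 1.11 ± 0.01 CPM (SD, n = 2).

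Foxd2 (chromosome 4, 114906282 to 114908873, minus strand, a single exon) had 2 and 0 anterior counts and 133 and 206 central counts. The ratio of central to anterior counts, scaled for depth, was 168 with a 95% exact interval of 46.2 to 1395, which covers counting error only. On halved counts, used because read mates may have been counted separately, the interval was 29.9 to 6703. The edgeR adjusted p-value was 0.000117. Foxd2os, a noncoding gene on the opposite strand whose start lies 383 bases from that of Foxd2 in GENCODE M21, had 0 and 0 anterior counts and 52 and 77 central counts. It was at least 21.2-fold lower in anterior cells (edgeR adjusted p-value 0.000865), and both Foxd2 and Foxd2os were thus seen almost only in central libraries.

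Both Foxf genes were detected in every library. Foxf2 (chromosome 13, 31625816 to 31631403, plus strand, 2 exons) measured 1.38 and 1.36 CPM in anterior cells against 3.99 and 3.77 in central cells. Replicates lay close together in each group, and the level was 2.82-fold lower in anterior cells (log2 fold change -1.50 ± 0.32 SE; adjusted p-value in edgeR 0.0103).

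Foxf1 (chromosome 8, 121084386 to 121088144, plus strand, 2 exons) had 12 and 8 anterior counts and 34 and 20 central counts. The groups did not overlap, but at this depth the difference did not pass the test: the log2 fold change was -1.43 ± 0.62 (SE) and the adjusted p-value from edgeR was 0.139. Without each library in turn it lay between -0.951 and -1.78, so the size of the difference is poorly known. Fendrr, a noncoding RNA gene that starts 1.3 kb away on the opposite strand and whose upstream window is printed above, had 0 and 0 anterior counts and 24 and 11 central counts. Fendrr was at least 5.82-fold lower in anterior cells (edgeR adjusted p-value 0.0149). The bounds for Foxd1, Foxd2os and Fendrr use the counts as deposited and would be smaller if read mates were counted separately. Both noncoding genes, like Foxd1 and Foxd2, could pass the filter only through the central libraries.

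The Foxp genes gave most of the reads. Foxp4 (chromosome 17, 47867133 to 47924645, minus strand) measured 92.7 and 80.7 CPM in anterior cells and 278 and 272 in central cells. It was 3.17-fold lower in anterior cells, with the smallest standard error of the members (log2 fold change -1.66 ± 0.08 SE; adjusted p-value by edgeR 3.72e-06). Foxp4 was the most abundant member in both populations.

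Foxp1 (chromosome 6, 98925338 to 99522721, minus strand) measured 17.96 and 15.82 CPM in anterior cells and 77.4 and 59.6 in central cells. This was a 4.05-fold lower level (log2 fold change -2.02 ± 0.14 SE; adjusted p-value by edgeR 2.29e-05). Foxp2 (chromosome 6, 14901349 to 15441977, plus strand), far from Foxp1 on the same chromosome, measured 6.96 and 3.55 CPM against 53.2 and 36.6. It fell 8.47-fold (log2 fold change -3.08 ± 0.28 SE; adjusted p-value by edgeR 0.000116), with anterior replicate 1 above anterior replicate 2.

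Ratios between the Foxp genes were also computed in each library. Per kilobase of exon, Foxp4 stood at 17.3 and 24.6 times the level of Foxp2 in the central libraries and at 44.2 and 75.5 times in the anterior ones, without overlap. The ratio of Foxp4 to Foxp1 was 10.02 and 12.71 in central and 14.4 and 14.2 in anterior libraries. These ratios are given as values; with 2 libraries against 2 no exact permutation test of them could pass the threshold, and none was run, so a difference in proportion between the populations was not tested.

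**Figure D2:**
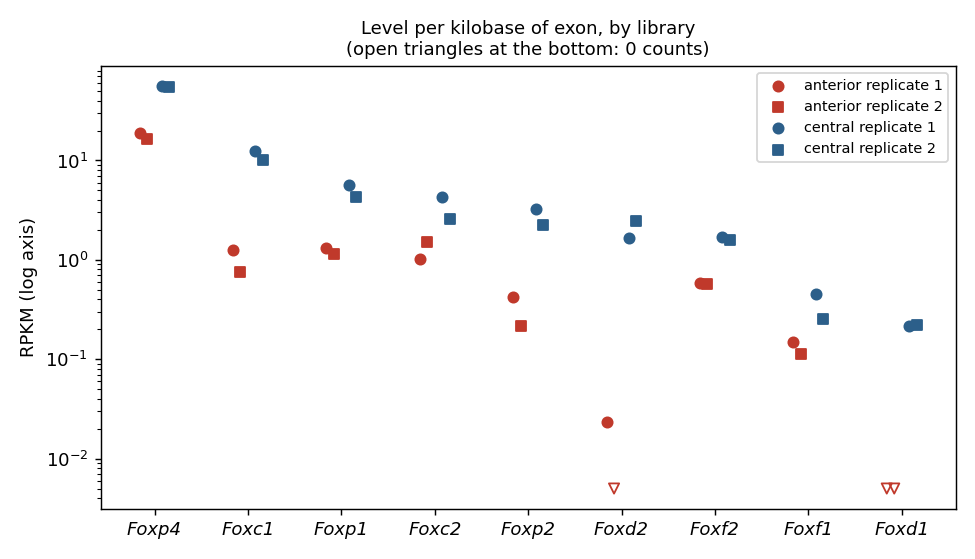
Level per kilobase of exon (RPKM, log axis) of the 9 genes in each library, ordered by their mean in central cells. Foxp4 lies above all other members in every library, and the anterior points (red) lie below the central points (blue) for each gene; open triangles stand for 0 counts.

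Levels of different genes can be compared only per length, here per kilobase of the union of exons in GENCODE M21 (RPKM). In central cells Foxp4 led with 55.8 ± 0.90 RPKM (SD, n = 2), followed by Foxc1 with 11.4 ± 1.72, Foxp1 with 4.98 ± 0.91, Foxc2 with 3.44 ± 1.21, Foxp2 with 2.75 ± 0.72, Foxd2 with 2.06 ± 0.56, Foxf2 with 1.64 ± 0.07, Foxf1 with 0.356 ± 0.14 and Foxd1 with 0.219 ± 0.001. With this length the steps from Foxp4 to Foxc1 and from Foxc1 to Foxp1 were larger than the spread between replicates, whereas Foxp1 and Foxc2 almost met (4.34 RPKM in the lower Foxp1 library and 4.29 in the higher Foxc2 library). Foxc2 overlapped Foxp2, Foxp2 overlapped Foxd2, and Foxd2 overlapped Foxf2, while Foxf2 lay above Foxf1 in both libraries. With the longest transcript as the length, Foxp1 stood at 9.54 RPKM in central cells and its libraries overlapped those of Foxc1, and Foxp2 stood at 6.64 RPKM and passed Foxc2, since exons of many Foxp2 and Foxp1 transcripts enlarge the union. In anterior cells Foxp4 led again with 17.6 ± 1.73 RPKM, and Foxc2 (1.26 ± 0.35), Foxp1 (1.23 ± 0.11) and Foxc1 (0.999 ± 0.36) were within each other's spread. With the longest transcript, Foxp1 stood at 2.35 RPKM in anterior cells, above Foxc2 and Foxc1, so the place of Foxp1 beside the Foxc genes depended on the length used. Summed over the 9 genes, the level was 23.6 and 20.7 RPKM in anterior libraries and 86.2 and 79.0 in central ones, while the 35 other forkhead genes summed to 153 and 153 against 140 and 150.

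The other forkhead genes that could be tested showed a different picture. Of the 35 in the table, 13 were tested, and 4 were called higher, 1 lower and 8 not called, with a median log2 fold change of 0.13. Foxm1, a factor of dividing cells, measured 199 and 208 CPM in anterior cells and 146 and 160 in central cells (log2 fold change 0.41 ± 0.07 SE; adjusted p-value by edgeR 0.00343). Foxn2, Foxk1 and Foxj3 were also higher, by 0.40, 0.28 and 0.28 on the log2 scale, with edgeR adjusted p-values of 0.0133, 0.0295 and 0.0354. Foxo4, a factor restrained by insulin signalling, was lower, at 121 and 122 CPM against 149 and 161 (log2 fold change -0.35 ± 0.07 SE; adjusted p-value by edgeR 0.00707). All 5 calls were small beside those of the 9 genes. Foxj3 was not called with library size alone or with upper-quartile scaling (adjusted p-values 0.0718 and 0.0649). Without anterior replicate 1 only Foxm1 and Foxn2 of the 5 were called, and without anterior replicate 2 only Foxm1 and Foxj3, with directions kept. Of the genes related to the members by letter, Foxp3, the regulator of regulatory T cells, had at most 26 counts in any library and did not pass (adjusted p-value in edgeR 0.794). Foxd3, a neural crest gene, had 0 and 0 anterior and 8 and 4 central counts, and Foxd4 had 2 and 1 against 8 and 2. Neither Foxd3 nor Foxd4 was tested.

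**Figure D3:**
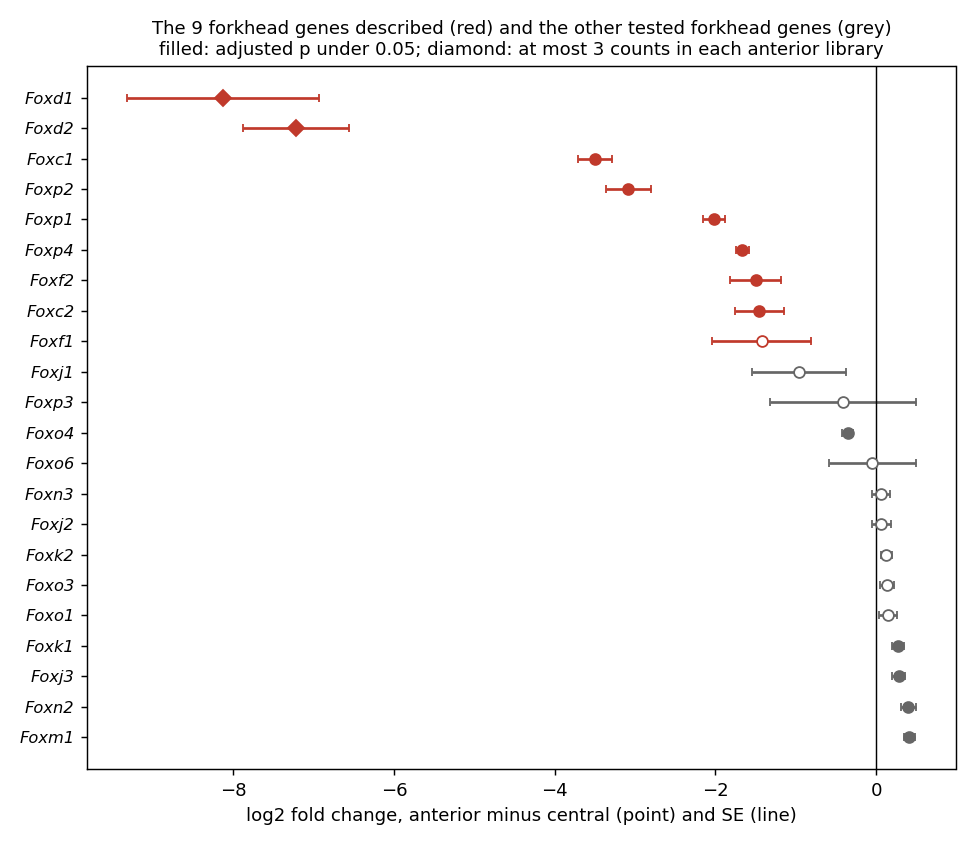
Log2 fold change (anterior minus central, points) with its SE (lines) for the 9 genes described (red) and the 13 other tested forkhead genes (grey). Filled points passed an adjusted p-value of 0.05; diamonds mark Foxd1 and Foxd2, whose fitted values are not bounded because anterior counts were 0 to 2.

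Several members lie in clusters, and the genes around them were examined for the same direction. Foxf1 and Foxc2 lie 28026 bases apart on chromosome 8 with Foxl1 9.0 kb beyond Foxc2, and Foxq1, Foxf2 and Foxc1 lie on chromosome 13 with 64.8 kb and 175 kb between them. The forkhead genes of these clusters that are not members were near the floor: Foxl1 had 1 and 10 anterior and 8 and 4 central counts, and Foxq1 had 0 and 0 anterior and 8 and 8 central counts. Mthfsd, a folate-metabolism gene between Foxf1 and Foxc2, was lower by a small amount, at 25.3 and 23.7 CPM against 34.5 and 35.1 (log2 fold change -0.51 ± 0.10 SE; adjusted p-value by edgeR 0.00653). Gmds, on the opposite strand with its 3′ end 7.1 kb beyond Foxc1, had a log2 fold change of -0.56 and did not pass (adjusted p-value in edgeR 0.0539). Over all loci, 68 tested genes that are not members lie within 1 Mb of a member: 8 were called higher, 9 lower and 51 not called, so 13.2% were lower, near the 12.3% of all tested genes. Of the 25 listed neighbour genes, 19 were tested, and Mthfsd, Gpr27 (170 kb from Foxp1, log2 fold change -0.86) and Utp15 (91.2 kb from Foxd1, log2 fold change 0.35) were called.

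**Figure D4:**
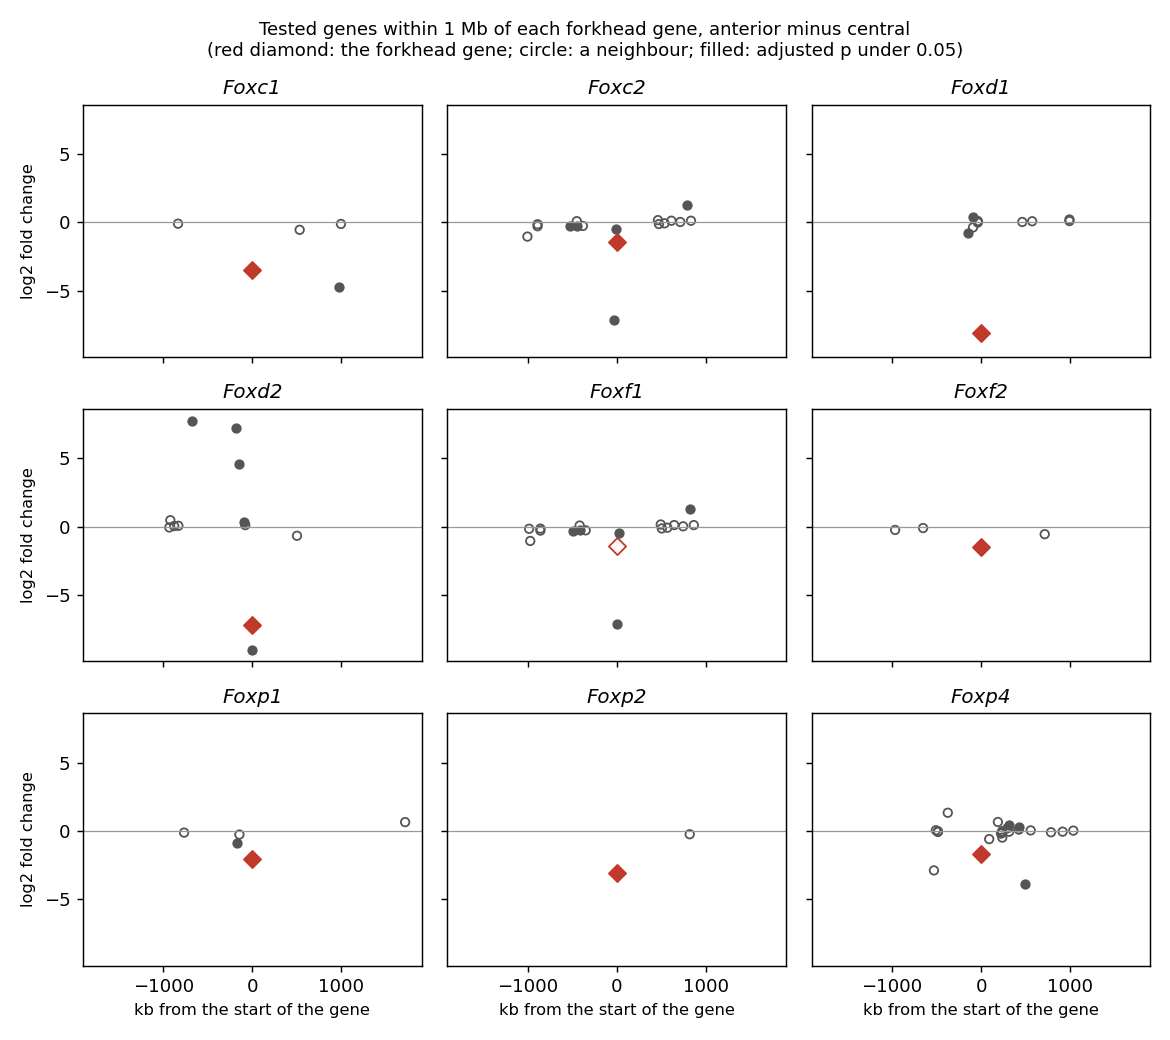
Log2 fold change (anterior minus central) of tested genes within 1 Mb of each forkhead gene, plotted by the distance in kb of their start from its start along its strand. The forkhead gene (red diamond) lies below most of its neighbours (circles), and filled symbols passed an adjusted p-value of 0.05; Fendrr and Foxd2os are the filled circles far below 0 close to Foxf1 (also drawn for Foxc2) and Foxd2.

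Genes linked to the members by function were examined next. Of 18 listed partners and corepressors of Foxp factors, including the NuRD complex and the CtBP proteins, 17 were tested: 1 was called higher and 16 were not called, with a median log2 fold change of 0.10. The called gene was Gatad2a, a NuRD subunit, at 203 and 218 CPM in anterior and 156 and 169 in central cells (log2 fold change 0.38 ± 0.07 SE; adjusted p-value by edgeR 0.00621). The next smallest p-values belonged to Mta1 (log2 fold change 0.19, adjusted p-value 0.0669) and Gatad2b (0.21, adjusted p-value 0.0768), also NuRD subunits, which were not called. Of 15 listed hedgehog response and pathway genes, 10 were called lower, 1 higher and 4 not called, with a median of -0.54. The smallest p-values there belonged to Osr2, Osr1 and Boc, with log2 fold changes of -5.08, -4.87 and -0.99 and edgeR adjusted p-values of 1.14e-06, 4.05e-05 and 4.83e-05. Osr1 and Osr2 are mesenchymal zinc finger factors and Boc is a hedgehog co-receptor. Of the direct targets of the pathway, 3 are given here, chosen after their values were seen. Hhip, a hedgehog-binding inhibitor, measured 2.37 and 1.87 CPM in anterior cells against 11.01 and 15.4 in central cells (log2 fold change -2.63; edgeR adjusted p-value 0.000154). Gli1 and Ptch1 fell by 0.42 and 0.54 on the log2 scale (edgeR adjusted p-values 0.0135 and 0.0102).

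Markers of other cell types and of limb position also differed between the groups, some lists in the direction of the members and others in the opposite one. The proximal limb list (5 genes) summed to 146 and 135 CPM in anterior cells and 583 and 588 in central cells, with 4 of 5 called lower, and the distal list (10 genes) summed to 2856 and 2771 against 906 and 799.9, with 10 of 10 called higher. Chondrogenic markers summed to 540 and 402 CPM against 1838 and 1390, with 10 of 13 tested genes lower; Matn1 had 0 and 0 anterior against 58 and 2 central counts and was not tested, and Snorc had 0 in every library. Tendon and connective tissue markers summed to 1704 and 1705 CPM against 3231 and 3020.0 (10 of 12 tested genes lower, Kera at 0 in both anterior libraries). Endothelial markers were sparse, at 21.4 and 28.3 CPM against 62.7 and 69.3 (10 of 15 lower, none at 0 in both anterior libraries). The sum of the pericyte markers, led by Notch3, did not separate the groups, at 560 and 604 CPM against 545 and 628. Yet 6 of the 7 tested pericyte genes had a negative log2 fold change (median -0.78), and 2 were called lower. These were Acta2 (0.39 and 0.07 CPM against 14.8 and 4.48) and Cspg4 (11.7 and 11.2 against 30.3 and 24.7). Neural crest markers summed to 15.9 and 10.8 CPM against 30.0 and 24.7 (2 of 6 lower, Sox10 at 0 in both anterior libraries). Much of the central sum came from Erbb3, whose values are given below. Of the 6 tested genes 4 had a negative log2 fold change, while those of Dct and Mitf were 2.81 and 0.64 and were not called. Myogenic markers summed to 18.6 and 9.61 CPM against 238 and 216, with 8 of 8 tested genes lower and Pax7 and Myog at 0 in both anterior libraries; Myf6 was at or below the floor in every library and was not tested. Ectoderm markers summed to 71.9 and 58.8 CPM against 74.9 and 201 (8 of 11 tested genes lower and 1 higher; Sp6, not tested, had 0 and 0 anterior against 1 and 14 central counts). Blood markers summed to 3301 and 8414 CPM against 5.46 and 8.37 (8 of 8 higher, with 4 adult globin genes at 0 in every library), and myeloid markers to 33.7 and 31.8 against 9.94 and 9.11 (6 of 10 higher). The part of these lists in the forkhead differences was not tested.

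The most abundant marker of a list was not always called with its list. Col2a1 (chondrogenic) measured 140 and 96.6 CPM in anterior and 900.1 and 676 in central cells, and Erbb3 (neural crest) 1.08 and 0.682 against 15.6 and 10.7, both called lower. Hoxd13 (distal) measured 849.9 and 677 CPM against 305 and 200.2, Tfap2a (ectoderm) 60.8 and 48.4 against 18.1 and 16.3, Hbb-y (blood) 1942 and 4866 against 1.49 and 3.65, and Mrc1 (myeloid) 8.99 and 11.9 against 1.36 and 1.24, all called higher. Egfl7 (endothelial, 5.34 and 7.94 CPM against 9.25 and 6.92), Col1a2 (tendon and connective tissue, 746 and 878 against 964 and 914) and Notch3 (pericyte, 371 and 381 against 345 and 409) were not called.

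**Figure D5:**
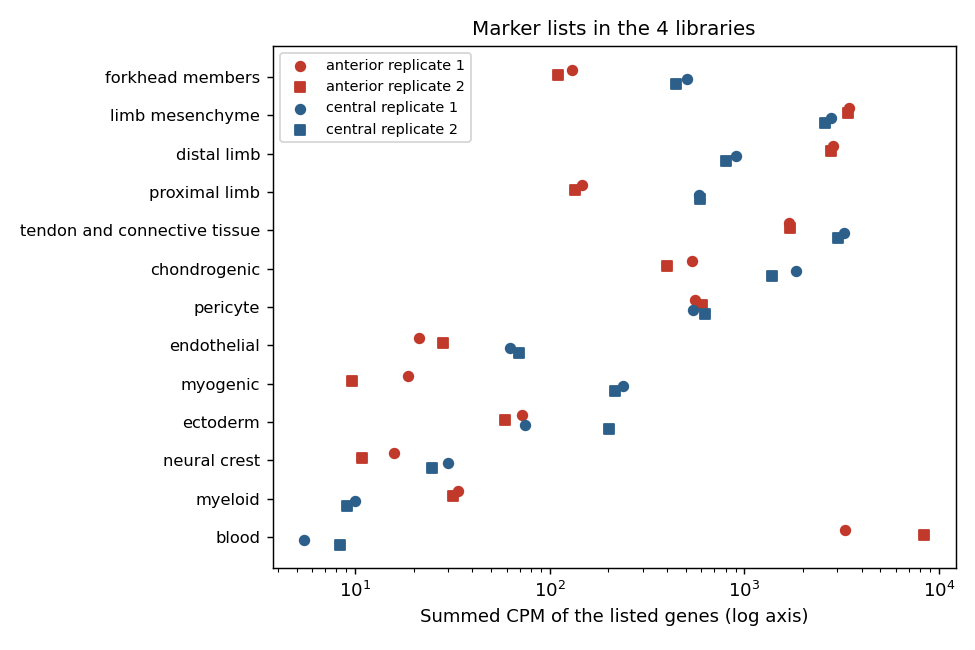
Summed CPM (log axis) of each marker list in the 4 libraries, with the 9 forkhead genes in the top row. The proximal, chondrogenic, tendon, endothelial and myogenic lists lie lower in anterior libraries (red) than in central ones (blue), as the forkhead genes do, and the distal, myeloid and blood lists lie higher.

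The anterior replicates differed for some members in the same sense as for proximal markers. Foxc1 and Foxp2 were higher in anterior replicate 1 than in replicate 2, by 0.74 and 0.96 on the log2 scale. Meis1 and Meis2, homeodomain factors of the proximal limb, measured 5.996 and 11.03 CPM in anterior replicate 1 and 1.77 and 2.05 in replicate 2, and Osr1 measured 2.85 and 0.682. Foxc2 went the other way, lower in replicate 1 by 0.56. Foxf2 differed by only 0.02 between the anterior replicates. Without anterior replicate 1 the log2 fold changes of Foxc1 and Foxp2 were -3.92 and -3.66, and without anterior replicate 2 they were -3.18 and -2.68, called in each case. Foxc1 and Foxp2 were therefore lower in either anterior library taken alone.

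The pattern over the 4 libraries of Foxd1, the member with the most negative fitted log2 fold change, was closest to those of Mstn, Chrnd and Cxcl12, with Euclidean distances of 0.121, 0.182 and 0.199 in centred log2 CPM. Mstn encodes myostatin and had 0 and 0 anterior and 36 and 40 central counts, Chrnd encodes a muscle acetylcholine receptor subunit and had 0 and 0 against 40 and 38, and Cxcl12 encodes a chemokine and had 675 and 627 against 10055 and 12150. Mstn and Chrnd shared with Foxd1 the absence of anterior counts, which Cxcl12 did not. Like Foxd1, Mstn and Chrnd could therefore be tested only through the central libraries. Likeness over 4 libraries in 2 groups separates few patterns.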

How the data were processed

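RNA was measured by paired-end sequencing in 4 libraries, 2 anterior and 2 central, grouped by sample title. The authors deposited whole-number read counts per gene symbol, not normalized. The submitters' processing notes name STAR 2.7.9a, HTSeq, DESeq2 and mm10; their parameters, the annotation and strand use are not given in the sources used here, so reads of overlapping or antisense genes may be misassigned. Between 72.8% and 75.7% of counts from 1 to 10 were even numbers, so a fit on halved counts was run too. Depth limits precision to the floor of 3 counts, and intervals cover counting error only.

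The counts were fitted in R 4.3.3 with edgeR 4.0.16: filterByExpr, TMM, and the two-sided quasi-likelihood F test, with 2 residual degrees of freedom and Benjamini-Hochberg adjustment over 14610 genes. The SE is the absolute log2 fold change divided by the square root of F. No libraries of a group agreed within sampling noise (chi-square per degree of freedom 16 and 8.96 on halved counts). On 5 simulated draws shaped on this comparison (14610 genes, 200 changed), 71.2% of changes of 1 and 87.5% of changes of 2 on the log2 scale were recovered, and 14.4% of calls were unchanged genes. In the data 3351 genes were called, far more than the 200 changed in the draws. The simulated shares therefore need not hold for the calls described here.

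Alternatives were DESeq2 size factors, library size alone, upper-quartile factors, the DESeq2 1.42.0 Wald test, limma-voom (limma 3.58.1), no filter, a mean count of at least 50, halved counts, removal of blood or of several cell type lists, a replicate block, a threshold of 0.01 and leaving out each library. The members and lists were chosen with earlier results of these data known. Named were all members, called other forkhead genes with a mean of at least 1 CPM, listed noncoding RNAs in the table, called neighbours, the 3 smallest p-values of 2 functional lists, the most abundant marker of each list (some are not reported here), and the 3 closest profiles to the members with the largest rise (none rose) and fall. Foxp3, Foxd3, Foxd4, Foxl1, Foxq1, Gmds, Gli1, Ptch1, Meis1, Meis2, Dct, Mitf, Acta2, Cspg4, Msx1 and Lhx9 were named after their values were seen. The noncoding list also held Foxl2os, at 0 and 12 anterior and 0 and 2 central counts, which was not tested. Gene positions and lengths come from GENCODE M21 (GRCm38), in which 24366 of the symbols were found. The stress list (11 genes, led by Ier2) had 1 gene called higher and 3 lower.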

Additional observations from a re-analysis of the deposited data

How the results depend on the processing

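Of 141 values of the 9 genes under the alternatives, 139 stayed on the same side of the threshold in the same direction, and 0 reversed. The others were Foxc2 and Foxf2, whose adjusted p-values of 0.0105 and 0.0103 miss a threshold of 0.01; at that threshold 6 members were called lower. With a mean count of at least 50, Foxd1 and Foxf1 were not tested and 7 members were called, and Foxf1 was not tested with halved counts. With the DESeq2 Wald test, limma-voom, each scaling, halved counts, no filter, the gene removals and the replicate block, 8 members were called lower and 0 higher. Foxd1 and Foxd2 are among the 8 and could be tested only through the central libraries. In this and the other member counts of this section they are therefore no evidence of direction. With the block, the count over all genes was 3586 against 3351, and the block changed no member's call; replicate deviations of the populations correlated at 0.0463 across genes, and the samples share only a number.

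Without each library in turn, which leaves 1 library in a group and assumes that it varies like the others, 8 members stayed called lower and 0 higher. Over all genes those fits called 2009 (without anterior replicate 2) to 3697 genes, 809 to 1884 of them higher and 1200 to 1813 lower. At the threshold of 0.01 the counts were 1690, 721 higher and 969 lower. Of the other forkhead genes, 2 to 4 were called without a library (2 to 3 higher, 0 to 1 lower), and 2 at 0.01 (1 higher). The fewer samples or the stricter criterion are part of these settings. The use of the longest transcript as length was chosen after the data were seen.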
